A study of Mus musculus with 8 samples.

Results

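The nuclear-encoded subunits of the mitochondrial respiratory chain and ATP synthase were examined across 3 sorted populations of mouse bone marrow. The set held 46 listed genes of complexes I to V. A gene was measured if a probe set carried its symbol and no other, and where several did, the one with the highest mean over the 8 arrays was taken. By this rule 43 of the 46 genes were measured, out of 22180 genes named in the table, and 22 of them belonged to complex I, 4 to complex II, 6 to complex III, 6 to complex IV and 5 to complex V. Ndufs6, Ndufb2 and Cox6c were found only on probe sets that carry several symbols and were left out.

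The study sorted these populations for microarrays to ask where in the stem cell compartment the chromatin remodeler Chd7 is expressed. Long-term haematopoietic stem cells (LT-HSC, with replicates 1 and 3 only) carried the surface gate CD48-CD150+CD34-, short-term haematopoietic stem cells (ST-HSC, 3 arrays) the gate CD48-CD150+CD34+ and multipotent progenitors (MPP, 3 arrays) the gate CD48+CD150-CD34+, all within the Lin-Sca1+Kit+ fraction. All came from C57/Bl6 mice with a labelled age of 8 week, and no group carried an engineered allele. The labels conflict on treatment: each sample is described as untreated, whereas a protocol shared by all samples describes marrow cells kept in DMSO for 2 hours, passed through primary recipients for 1 year and then through secondary recipients for 3 months. Which of the 2 applies could not be settled, and it would apply to all 3 populations alike. Nothing in the labels ties replicates to different animals. The p-values below therefore cover the spread between arrays, which may be technical.

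The respiratory chain passes electrons from NADH (complex I) and succinate (complex II) through ubiquinone, complex III and cytochrome c to oxygen at complex IV, and complex V uses the resulting proton gradient to make ATP. Most subunits are encoded in the nucleus and imported, while a few hydrophobic core subunits are encoded by mitochondrial DNA. Long-term haematopoietic stem cells are mostly quiescent and are known to rely on glycolysis more than cycling progenitors do, and a shift towards oxidative phosphorylation accompanies their activation.

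Nuclear respiratory factor 1 (NRF-1) and the ETS family factor GABP are known to bind the promoters of many respiratory chain genes. Their motifs were therefore searched in RefSeq promoter windows (250 bases before to 50 after a start site, build GRCm38.p6), which were matched for 33 of the 43 genes. Ndufs1, Ndufa2, Ndufb9, Sdhc, Cyc1, Uqcrc2, Uqcrq, Uqcrb, Cox4i1 and Atp5a1 had no entry. The NRF-1 motif was searched as GCGCA and GCGC parted by any 1 base, and the ETS motif as CCGGAAGT, on both strands. Neither motif contains the other. Of the 18 subunits given below with the largest differences of their complex, 3 had a match. Ndufa2, Sdhc, Uqcrb and Cox4i1 are among the 18 and had no window to search. The stretch around the match nearest to the start site is shown for each of the 3 matched subunits. The 2 kinds of match can thus be seen. Sequences run 5′ to 3′ on the gene's strand, here the minus strand, with the match in capitals. Cox8a lies at chr19:7217615-7217692, Atp5c1 at chr2:10080433-10080519 and Ndufa5 at chr6:24527691-24527786.
Cox8a: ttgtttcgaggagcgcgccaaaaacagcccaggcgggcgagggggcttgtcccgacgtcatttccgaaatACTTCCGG
Atp5c1: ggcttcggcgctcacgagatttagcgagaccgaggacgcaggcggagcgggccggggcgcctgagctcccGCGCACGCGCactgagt
Ndufa5: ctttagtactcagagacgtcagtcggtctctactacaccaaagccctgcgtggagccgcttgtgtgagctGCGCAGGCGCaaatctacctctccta

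The Cox8a stretch holds the ETS motif read on the opposite strand, beginning 6 bases before the start site of the table and running across it. The Atp5c1 and Ndufa5 stretches hold the NRF-1 motif, beginning 17 and 26 bases before that start site. The NRF-1 motif was present in the promoters of 8 of 33 subunits (24.2%; Atp5c1, Ndufa8, Ndufa5, Sdhd, Uqcrc1, Sdha, Ndufa6 and Atp5o), against 15.2% of 1904 bright genes (mean signal at or above the 90th percentile of all probe sets) and 5.19% of all 27025 genes with an entry. The ETS motif was present in 2 of 33 subunits (6.06%, Cox8a and Ndufs3), against 10.8% of the bright genes and 4.31% of all genes. Among the 13565 genes with an entry that were also tested below, the shares were 8.73% (NRF-1) and 6.8% (ETS). The ETS share of the subunits was thus not above that of the tested genes. These are letter matches in a short window. No match in a window means only that these letters are not there.

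The arrays differed in quality measures that touch every value below. The interquartile range of the log2 signal was 2.49 in LT-HSC replicate 1 and 2.73 in ST-HSC replicate 1, against 2.82 to 3.06 in the other arrays, and their median correlations with the other arrays were 0.956 and 0.968, against 0.976 to 0.985. The gate was reflected in Slamf1, which encodes CD150, at 4.77 to 5.46 in MPP, against 7.77 and 7.78 in LT-HSC. Cd34 did not follow the gate in one array: it was 8.50 in LT-HSC replicate 1 but 10.20 in LT-HSC replicate 3, a population gated as CD34-, against 9.55 to 10.15 in ST-HSC and 10.85 to 11.00 in MPP. Granulocyte and monocyte markers (16 of 16 measured) were highest in the replicate 1 arrays, as given below.

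The subunits were bright. Their mean log2 signals lay between 5.55 and 10.82, at the 58.2nd to 99.2nd percentile of probe sets with a median at the 94.4th, and all 43 passed the filter on dim probe sets. The pattern shared by most of them was an order of means with LT-HSC lowest, MPP between and ST-HSC highest. This order held for 36 of 43 subunits (83.7%), against 22% of the 17576 genes tested. A further 6 subunits (Ndufs7, Ndufa10, Cox4i1, Cox8a, Atp5c1 and Atp5o) had LT-HSC lowest and MPP highest, and Ndufa5 alone had MPP lowest. No neighbouring pair in these orders passed the tests below. A low LT-HSC mean was common among bright genes. Of the 2419 genes at or above the 90th percentile, 80.7% were higher in ST-HSC than in LT-HSC and 88.4% higher in MPP than in LT-HSC. The share of each order was not counted among these bright genes, so 22% is not a share for genes of equal level.

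**Figure D1:**
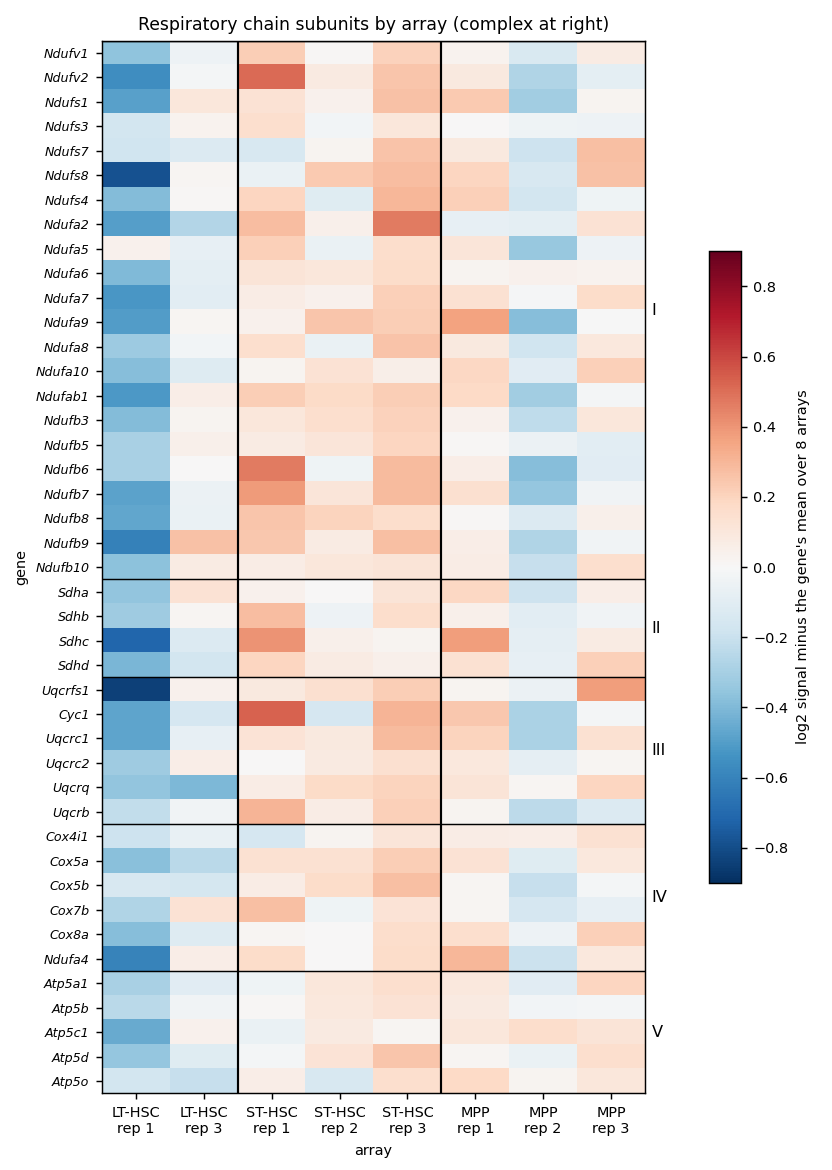
Log2 signal of each of the 43 subunits (rows, grouped by complex) in each of the 8 arrays (columns, grouped by population), as the deviation from that gene's mean over the arrays (colour, blue below and red above). The column of LT-HSC replicate 1 is below the mean in most rows and holds the lowest value of 36 of 43 subunits, while the ST-HSC columns are mostly above it.

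The low value in LT-HSC came mainly from 1 array. Across all subunits the median deviation from each gene's own mean was -0.38 and -0.03 in LT-HSC replicates 1 and 3. It was 0.12, 0.08 and 0.21 in ST-HSC replicates 1, 2 and 3, and 0.09, -0.14 and 0.07 in MPP replicates 1, 2 and 3. LT-HSC replicate 1 was the lowest of the 8 arrays for 36 of 43 subunits (83.7%), against 32.5% of all genes tested. The next lowest was MPP replicate 2, which held the lowest value of 5 subunits. The highest value was in ST-HSC replicate 3 for 17 subunits, in ST-HSC replicate 1 for 13 and in MPP replicate 3 for 8.

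LT-HSC replicate 1 was low for bright genes in general. The 2419 genes at or above the 90th percentile had median deviations of -0.41 and 0.06 in LT-HSC replicates 1 and 3, of -0.08, 0.11 and 0.13 in ST-HSC replicates 1, 2 and 3, and of 0.13, 0.00 and 0.08 in MPP replicates 1, 2 and 3. In ST-HSC replicate 1 the subunits, at 0.12, stood above these bright genes, at -0.08, and in MPP replicate 2 they stood below them, at -0.14 against 0.00. With all arrays scaled to a common interquartile range, a setting added after seeing the data, the median difference of the subunits was 0.19 for ST-HSC minus LT-HSC (36 of 43 positive), against 0.34 as deposited, and 0.042 for MPP minus LT-HSC (25 of 43), against 0.21.

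The comparison of ST-HSC with LT-HSC asks how the subunits differ between the short-term and the long-term repopulating stem cells. All 43 subunits had a positive difference, with a median of 0.34 on the log2 scale (1.26-fold) and a range of 0.12 to 0.65, beside a median of 0.02 and 52% positive over all genes tested. No subunit passed the test: 0 of 43 were called by limma with Benjamini-Hochberg adjustment, against 0.933% of all genes, and the lowest adjusted p was 0.191, for Ndufa2. At an unadjusted p under 0.05 there were 12 subunits, all with a positive difference, against 7.81% of genes with a positive difference. In 25 subunits every ST-HSC array was above both LT-HSC arrays (13.8% of all genes), and in 0 every one was below (9.5%). These shares are over all genes and were not counted among equally bright ones.

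Complex III had the largest complex median in this comparison, 0.48 over 6 subunits. Complex I had 0.36 over 22, complex II 0.34 over 4, complex IV 0.31 over 6 and complex V 0.22 over 5. Within complex I the core subunits of the peripheral arm, which as a group carry the flavin and iron-sulfur clusters, had a median of 0.34. The accessory subunits of that arm had 0.39 and the accessory subunits of the membrane arm 0.35. The single complex I subunits ran over 0.12 to 0.65.

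**Figure D2:**
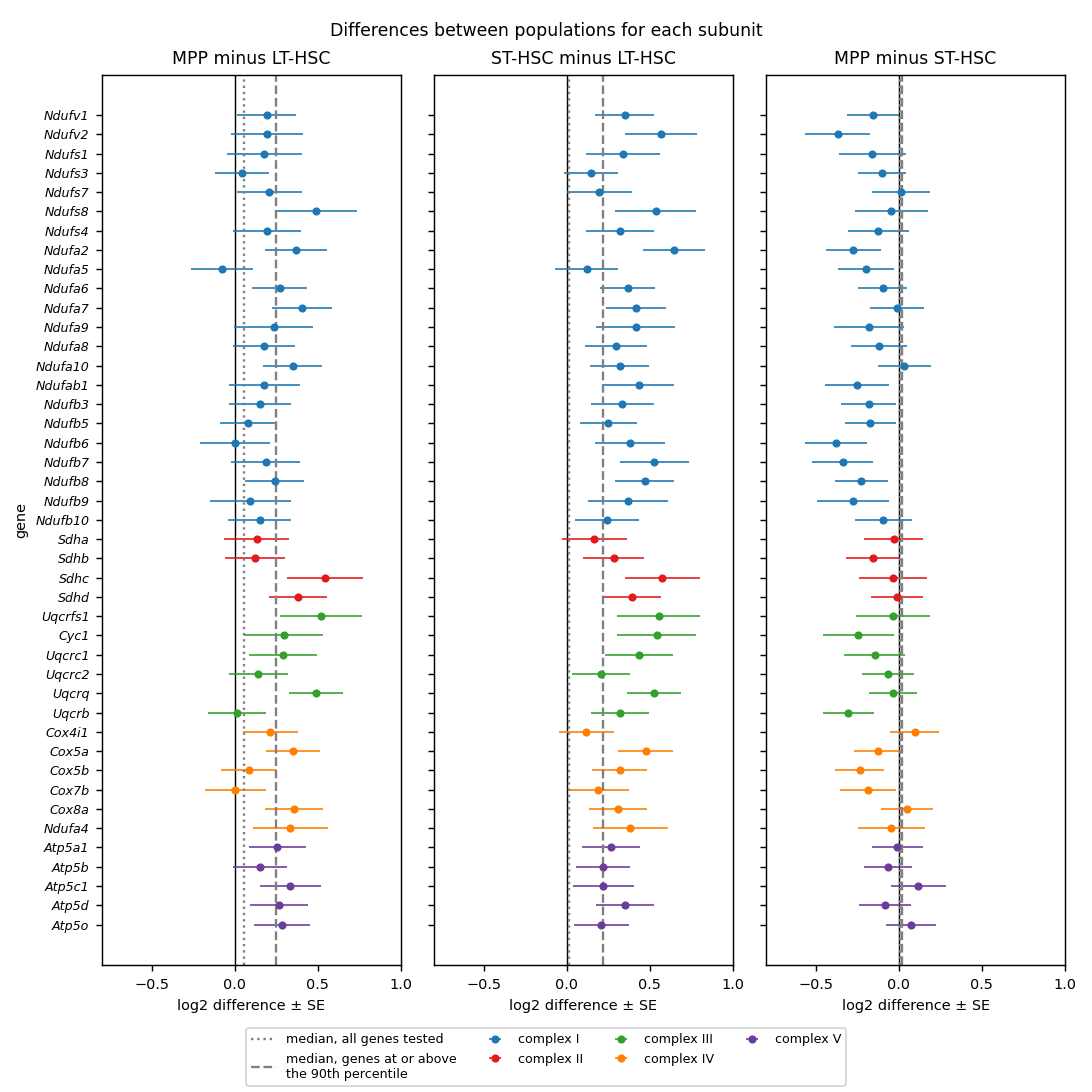
Log2 difference of each subunit (points, with bars of 1 standard error from the limma fit) in the 3 comparisons, coloured by complex, with the median of all genes tested (dotted) and of genes at or above the 90th percentile (dashed). In the panel of ST-HSC minus LT-HSC all 43 points are above 0, in that of MPP minus LT-HSC 42, and in that of MPP minus ST-HSC 6.

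Without the replicate 1 arrays of all populations the ST-HSC minus LT-HSC median was 0.16, with 40 of 43 subunits positive. It was 0.17 with 39 positive when only LT-HSC replicate 1 was left out. In every such setting LT-HSC is replicate 3 alone, the array with Cd34 at 10.20 in a population gated as CD34-. The complex medians without the replicate 1 arrays were 0.15 (complex I, 21 of 22 positive), 0.10 (complex II, 3 of 4), 0.20 (complex III, 6 of 6), 0.16 (complex IV, 5 of 6) and 0.21 (complex V, 5 of 5). Complex V thus kept its median, at 0.22 with and 0.21 without these arrays, while those of the other complexes were lower without them. Groups that did not overlap numbered 31 higher and 2 lower without the replicate 1 arrays, against 34.5% and 37% of all genes, since LT-HSC is then 1 array and ST-HSC 2. Within replicate 1 alone the median was 0.53 with 43 positive, and within replicate 3 alone it was 0.23 with 40 positive.

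Brightness was matched by setting the subunits beside other genes of the same level. At or above the 90th percentile, the 32 subunits had a ST-HSC minus LT-HSC median of 0.35, beside 0.22 over all 2419 genes of that level, of which 80.7% were positive. Without the replicate 1 arrays these medians were 0.20 and 0.05. Between the 75th and 90th percentiles the 7 subunits had 0.34, beside 0.19 over all genes of that level. The medians of the subunits were thus above those of equally bright genes in both bands, with no test made of that gap.

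In complex I, Ndufa2, an accessory subunit of the peripheral arm, had the largest ST-HSC minus LT-HSC difference. Its log2 signal was 10.27, 10.04 and 10.46 in ST-HSC replicates 1, 2 and 3, and 9.50 and 9.73 in LT-HSC replicates 1 and 3. MPP lay between, at 9.92, 9.91 and 10.13. Each ST-HSC array was above each LT-HSC array, and the gap between the closest arrays was wider than the gap between the 2 LT-HSC arrays. The difference was 0.65 (SE 0.19, limma adjusted p = 0.191) and was 0.52 without the replicate 1 arrays.

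Ndufv2, a core subunit that binds an iron-sulfur cluster next to the NADH site, was 9.16, 8.74 and 8.90 in ST-HSC, while LT-HSC had 8.10 and 8.64. The ST-HSC arrays were all above LT-HSC, though ST-HSC replicate 2 was close to LT-HSC replicate 3. Its difference of 0.57 (SE 0.22, limma adjusted p = 0.365) was 0.18 without the replicate 1 arrays. Ndufs8, an iron-sulfur core subunit near the ubiquinone site, was 8.51, 8.81 and 8.85 in ST-HSC and 7.79 and 8.59 in LT-HSC, so the groups overlapped. Its difference of 0.53 (limma adjusted p = 0.458) was 0.24 without those arrays.

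Other complex I subunits with non-overlapping groups in this comparison included Ndufb7 (0.53), Ndufb8 (0.47), Ndufab1 (0.43), which is also the mitochondrial acyl carrier protein, and Ndufa7 (0.42). Ndufb7 and Ndufb8 are accessory subunits of the membrane arm. At the other end stood Ndufa5, an accessory subunit of the peripheral arm, at 8.87, 8.59 and 8.81 in ST-HSC and 8.69 and 8.58 in LT-HSC. These groups overlapped, and the difference was 0.12 (SE 0.19, limma adjusted p = 0.853).

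In complex II, succinate dehydrogenase, the membrane anchor subunits had the larger differences. Sdhc was 9.04, 8.68 and 8.66 in ST-HSC, and 7.92 and 8.52 in LT-HSC, without overlap. The difference was 0.58 (SE 0.23, limma adjusted p = 0.382), of which 0.16 was left without the replicate 1 arrays. The other anchor, Sdhd, differed by 0.39 without overlap, while the catalytic subunits Sdhb, which holds the iron-sulfur clusters, and Sdha, the flavoprotein, differed by 0.28 and 0.17.

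In complex III, Uqcrfs1, the Rieske iron-sulfur protein, and Uqcrq, a small accessory subunit, had similar differences that rested on different arrays. Uqcrfs1 was 7.55, 7.62 and 7.69 in ST-HSC, and 6.63 and 7.51 in LT-HSC, so that LT-HSC replicate 3 was just under the lowest ST-HSC array and replicate 1 far below it. Its difference was 0.55 (SE 0.25, limma adjusted p = 0.448) and was 0.15 without the replicate 1 arrays. Without LT-HSC replicate 3, where LT-HSC is replicate 1 alone, Uqcrfs1 was the 1 subunit that passed the test (limma adjusted p = 0.0391). That fit sets the other populations against the array of narrowest range, and assumes that this lone array varies as the arrays of the other populations do.

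Uqcrq was named after its values were seen, for the lowest adjusted p in the comparison of MPP with LT-HSC. It was 8.72, 8.82 and 8.85 in ST-HSC and 8.77, 8.67 and 8.85 in MPP, against 8.30 and 8.25 in LT-HSC. Both LT-HSC arrays were close together and below each of the 6 others. The ST-HSC minus LT-HSC difference was 0.52 (SE 0.16, limma adjusted p = 0.223) and was 0.59 without the replicate 1 arrays (limma adjusted p = 0.358), the largest of the 43 in that setting. Its 95% interval, 0.17 to 0.88, left out 0, as did those of 11 other subunits. The cytochrome subunit Cyc1 differed by 0.54, with overlapping groups (8.35 in both ST-HSC replicate 2 and LT-HSC replicate 3).

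In complex IV, cytochrome c oxidase, Cox5a, a subunit on the matrix side of the enzyme, was 10.52, 10.51 and 10.60 in ST-HSC, and 9.999 and 10.14 in LT-HSC. The groups did not overlap and each was tight. The difference was 0.48 (SE 0.17, limma adjusted p = 0.31) and was 0.42 without the replicate 1 arrays. Cox5b, another matrix-side subunit, was 9.78, 9.88 and 9.99 in ST-HSC and 9.57 and 9.56 in LT-HSC, again without overlap, and differed by 0.32 (limma adjusted p = 0.513). Cox4i1, the ubiquitous isoform of subunit IV, was 10.58, 10.76 and 10.85 in ST-HSC and 10.55 and 10.67 in LT-HSC, with overlap and a difference of 0.12.

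In complex V, ATP synthase, differences were small and even. Atp5d, part of the rotating central stalk, was 10.69, 10.83 and 10.95 in ST-HSC and 10.36 and 10.59 in LT-HSC, without overlap. Its difference was 0.35 (SE 0.17, limma adjusted p = 0.494). Atp5a1 and Atp5b, the alpha and the catalytic beta subunit, differed by 0.27 and 0.22, and Atp5o, which joins the catalytic head to the peripheral stalk, by 0.21, all without overlap.

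The comparison of MPP with LT-HSC asks how the subunits differ between multipotent progenitors and the long-term stem cells. It shares the LT-HSC arrays with the comparison above, so the 2 are not independent. Here 42 of 43 subunits had a positive difference, with a median of 0.21 (1.16-fold) and a range of -0.08 to 0.54, beside a median of 0.06 and 57.2% positive over all genes. Again 0 of 43 were called by limma, against 0.125% of all genes, and the lowest adjusted p was 0.343, for Uqcrq. At an unadjusted p under 0.05 there were 3 subunits (Uqcrq, Sdhc and Ndufa7), against 6.96% of genes with a positive difference.

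Set beside other bright genes, this median was no higher: 0.22 over the 32 subunits at or above the 90th percentile, beside 0.25 over all genes of that level, of which 88.4% were positive. Every MPP array was above both LT-HSC arrays for 14 subunits (14.1% of all genes) and below for 0 (10.5%). The complex medians were 0.29 (complex III), 0.27 (complex IV), 0.27 (complex V), 0.26 (complex II) and 0.19 (complex I). Without the replicate 1 arrays the median over all subunits was 0.00 with 22 of 43 positive, and non-overlapping groups numbered 14 higher and 14 lower, against 33.3% and 33% of all genes. Within replicate 1 the median was 0.47 with 43 positive, and within replicate 3 it was 0.11 with 29 positive.

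**Figure D3:**
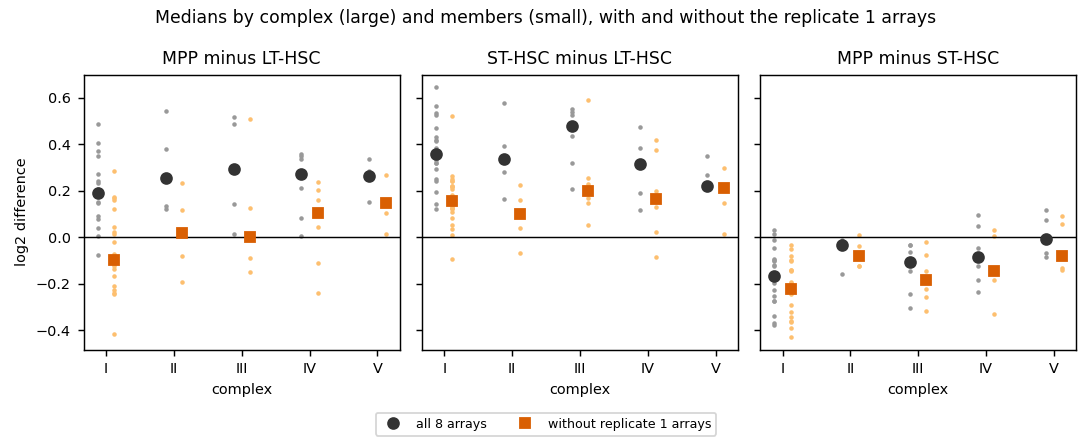
Median log2 difference of each complex (large symbols) and of its subunits (small points) in the 3 comparisons, with all 8 arrays (black) and without the replicate 1 arrays (orange). For MPP minus LT-HSC the complex I median is 0.19 with all arrays and -0.10 without replicate 1, while complex V keeps a positive value of 0.15.

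The complexes parted in this comparison once the replicate 1 arrays were left out. The complex I median was -0.10 with 8 of 22 subunits positive, that of complex II 0.02 with 2 of 4, of complex III 0.00 with 3 of 6, of complex IV 0.10 with 4 of 6 and of complex V 0.15 with 5 of 5. No test was made between complexes, whose subunits share their arrays. Within replicate 3 every complex had a positive median: 0.05 in complex I (13 of 22 positive), 0.07 in complex II, 0.17 in complexes III and IV, and 0.26 in complex V (5 of 5). The fit without the replicate 1 arrays also holds MPP replicate 2, where the median deviation was -0.18 for complex I and -0.03 for complex V.

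Sdhc had the largest MPP minus LT-HSC difference, at 9.01, 8.56 and 8.71 in MPP and 7.92 and 8.52 in LT-HSC. The lowest MPP array was just above the higher LT-HSC array. The difference was 0.54 (SE 0.23, limma adjusted p = 0.452) and was 0.12 without the replicate 1 arrays. Uqcrq differed by 0.49 (SE 0.16, limma adjusted p = 0.343) and by 0.51 without those arrays, so it did not rest on them.

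Uqcrfs1 was 7.49, 7.42 and 7.85 in MPP and 6.63 and 7.51 in LT-HSC, with overlap, and differed by 0.52 (SE 0.25, limma adjusted p = 0.493). Without LT-HSC replicate 3 it was the 1 subunit called in this comparison too (limma adjusted p = 0.0489), and without the replicate 1 arrays it differed by 0.13. Ndufs8 was 8.77, 8.43 and 8.84 in MPP and 7.79 and 8.59 in LT-HSC, also with overlap, and differed by 0.49. It differed by 0.04 without the replicate 1 arrays. Ndufa7, an accessory subunit of the peripheral arm, was 8.62, 8.47 and 8.65 in MPP and 7.96 and 8.39 in LT-HSC, without overlap, and differed by 0.40 (SE 0.18, limma adjusted p = 0.469).

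Cox8a, a small membrane subunit of complex IV, was 10.83, 10.63 and 10.89 in MPP and 10.29 and 10.56 in LT-HSC. The groups did not overlap. The difference was 0.36 (SE 0.17, limma adjusted p = 0.501) and was 0.20 without the replicate 1 arrays. Atp5c1, the gamma subunit that forms the rotor shaft of ATP synthase, was 6.54, 6.60 and 6.56 in MPP and 5.99 and 6.47 in LT-HSC, with a difference of 0.34 (limma adjusted p = 0.53). The MPP arrays were tight and above both LT-HSC arrays, which were far apart.

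Ndufa10, an accessory subunit of the membrane arm, was 9.28, 8.99 and 9.30 in MPP and 8.71 and 8.97 in LT-HSC. The difference was 0.35 (limma adjusted p = 0.512), with the closest arrays nearly level. Sdhd (0.38), Ndufa2 (0.37) and Cox5a (0.35) also had non-overlapping groups. Ndufa5 had the only negative difference, -0.08 (SE 0.19, limma adjusted p = 0.876), at 8.76, 8.31 and 8.61 in MPP and 8.69 and 8.58 in LT-HSC.

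The comparison of MPP with ST-HSC asks how the subunits differ across the CD150 and CD48 boundary. Its differences use no LT-HSC array, while its p-values, standard errors and intervals take their spread from all 8 arrays. Here 37 of 43 subunits had a negative difference, with a median of -0.12 (0.921-fold) and a range of -0.38 to 0.12, beside a median of 0.01 and 48.3% negative over all genes. No subunit passed: 0 of 43 were called by limma, against 0.193% of all genes, the lowest adjusted p was 0.802 (Ndufb6), and 0 had an unadjusted p under 0.05 (6.89% of genes in either direction). The 95% interval included 0 for all 43, and the bounds allowed a subunit to be as much as 0.80 lower or 0.48 higher. Every MPP array was below every ST-HSC array for 7 subunits (6.43% of all genes) and above for 1 (7.75%). With the replicate 1 arrays left out these were 18 and 1, against 21% and 21.1%.

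In this comparison arrays of equal replicate number deviated together, though weakly, with correlations of 0.149, 0.23 and 0.209 in replicates 1, 2 and 3. The numbers were therefore also used to pair the arrays. The fit blocked the arrays of all populations by replicate number, LT-HSC included, and not ST-HSC and MPP alone. It called 267 genes in place of 34, and still 0 of 43 subunits (lowest limma adjusted p = 0.487, Ndufb6), with 1 subunit at an unadjusted p under 0.05. The block was chosen from deviations in the same data, so the higher count of genes is not independent evidence for the pairing. The median difference was -0.03 within replicate 1, with 24 of 43 subunits negative, -0.19 within replicate 2 with 40 negative, and -0.13 within replicate 3 with 33 negative. The size rested partly on MPP replicate 2. Without it the median was -0.04 with 18 of 43 positive, and without the replicate 1 arrays it was -0.14 with 5 positive.

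Complex I had the lowest median in this comparison, -0.17 with 20 of 22 subunits negative. Complexes II to V had -0.03, -0.11, -0.09 and -0.01. Its membrane arm had -0.21 over 10 subunits, against -0.13 over the 6 core subunits of the peripheral arm. Without the replicate 1 arrays all 22 complex I subunits were negative, with a median of -0.22. Within replicates 1, 2 and 3 taken singly, 15, 22 and 19 of the 22 were negative, with medians of -0.07, -0.30 and -0.19, so the lowest was that of replicate 2. At or above the 90th percentile the 32 subunits had a median of -0.10, beside 0.02 over all genes of that level. Without the replicate 1 arrays these were -0.14 and -0.07.

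**Figure D4:**
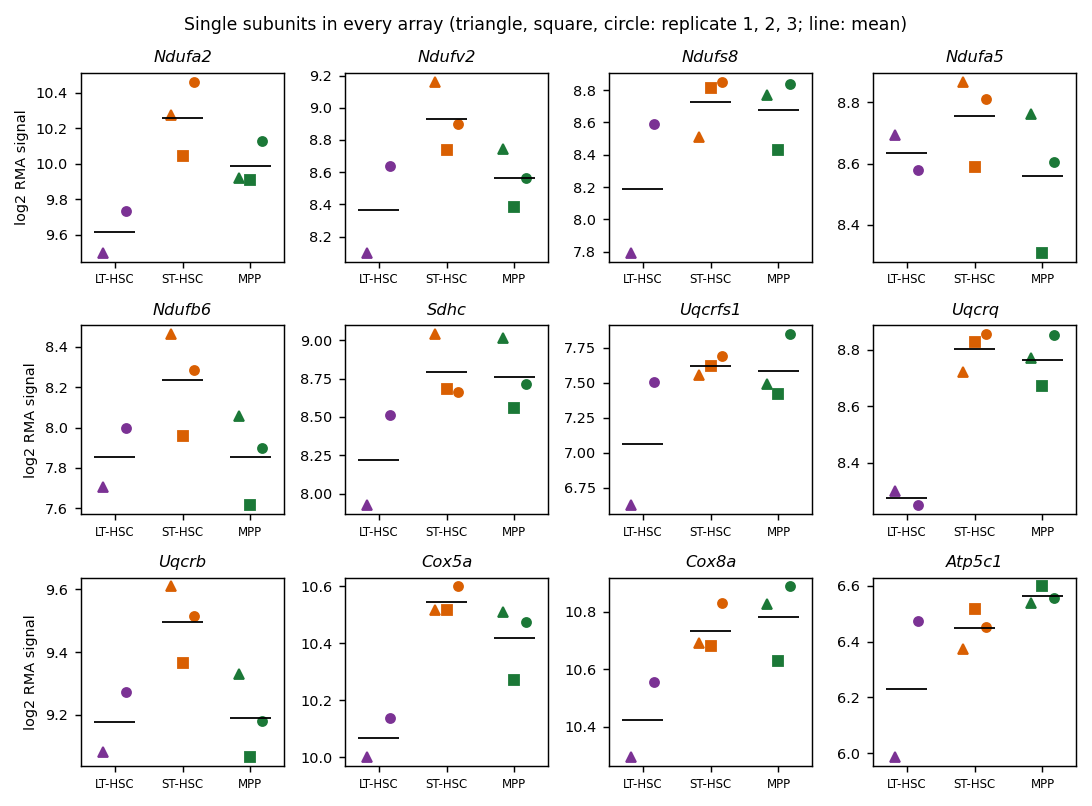
Log2 signal of 12 subunits in each array, by population, with the mean as a line and the replicate number as the symbol. Uqcrq has both LT-HSC arrays below all others, while for Ndufs8, Uqcrfs1 and Atp5c1 only LT-HSC replicate 1 is far from the other arrays.

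Ndufb6, an accessory subunit of the membrane arm, had the largest negative difference. It was 8.06, 7.61 and 7.90 in MPP and 8.46, 7.96 and 8.29 in ST-HSC, so that each MPP array was below the ST-HSC array of its own number, though the groups overlapped. The difference was -0.38 (SE 0.19, limma adjusted p = 0.802) and was -0.37 without the replicate 1 arrays. Ndufv2 was 8.74, 8.38 and 8.56 in MPP. Replicate 1 lay just inside the ST-HSC range and the other MPP arrays below it, so the groups overlapped. Its difference was -0.37 (SE 0.19, limma adjusted p = 0.842).

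Uqcrb, an accessory subunit of complex III, was 9.33, 9.06 and 9.18 in MPP and 9.61, 9.37 and 9.51 in ST-HSC. The groups did not overlap, by a small margin, and the difference was -0.31 (SE 0.16, limma adjusted p = 0.82). Cox5b was 9.73, 9.51 and 9.70 in MPP, all below its lowest ST-HSC array, and differed by -0.24 (SE 0.15, limma adjusted p = 0.936). The other subunits with every MPP array lower were Ndufb9 (-0.28), Ndufb8 (-0.23), Ndufb5 (-0.17), Cox5a (-0.13) and Ndufa6 (-0.10).

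Sdhb was 7.71, 7.57 and 7.63 in MPP and 7.94, 7.62 and 7.82 in ST-HSC, and its difference of -0.16 was the lowest in complex II. Atp5d was 10.72, 10.65 and 10.86 in MPP and differed by -0.08. The subunits on the positive side differed little. Atp5c1, at 6.37, 6.52 and 6.45 in ST-HSC, was the 1 subunit with every MPP array above every ST-HSC array, by 0.12 (SE 0.16, limma adjusted p = 0.999). Cox4i1, at 10.80, 10.79 and 10.87 in MPP, differed by 0.09. Ndufs7, an iron-sulfur core subunit, was 8.49, 8.21 and 8.67 in MPP and 8.25, 8.43 and 8.65 in ST-HSC, with a difference of 0.01.

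The F test over the 3 populations, which asks for any difference, called 0 of 43 subunits by limma, against 0.905% of all genes. The lowest adjusted p was 0.302, for Uqcrq. The precision set the limit here. Standard errors ran over 0.16 to 0.25 in the comparisons with LT-HSC, and the interval of the difference allowed a subunit to be as much as 1.10 higher in ST-HSC or 1.07 higher in MPP. The misses therefore do not show that the levels were equal.

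Other genes of the same pathways were described in the same way. Among 32 further nuclear-encoded respiratory subunits and isoforms, 0 were called in any comparison, and the medians were 0.21 (MPP minus LT-HSC), then 0.25 (ST-HSC minus LT-HSC) and lastly -0.14 (MPP minus ST-HSC). Cox6b2, an isoform known from testis, was 9.96, 9.58 and 9.80 in ST-HSC and 9.07 and 8.78 in LT-HSC, and had the lowest p of that list for ST-HSC minus LT-HSC, a difference of 0.85 (limma adjusted p = 0.0703). Cox4i2, the isoform of subunit IV induced by low oxygen, had the opposite sign. It was 6.21, 6.55 and 6.06 in MPP against 7.05 and 6.63 in LT-HSC, with a difference of -0.57 (limma adjusted p = 0.373). The largest difference of that list, 1.06 for Cox8b in MPP minus LT-HSC, came from 1 array. Cox8b was 7.64 in MPP replicate 3 and 3.71 to 4.26 in the other arrays. Cox7a1 and Cox6a2 were also highest in MPP replicate 3, at 6.27 and 6.97.

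The subunits encoded by mitochondrial DNA did not share the pattern of the nuclear ones. Over 10 genes the MPP minus LT-HSC median was -0.10, with 0 of 10 positive. The ST-HSC minus LT-HSC median was -0.02, with 4 positive, and MPP minus ST-HSC gave -0.07, with 0 positive. None was called, and none had an unadjusted p under 0.05. In LT-HSC replicate 1, where the nuclear subunits had a median deviation of -0.38, the mitochondrial ones had 0.03. Among the MPP arrays the low values were those of 1 array: MPP replicate 3 was at -0.21 and was the lowest of the 8 arrays for 10 of 10 genes, while MPP replicates 1 and 2 were at 0.02 and 0.04, against 0.03 and 0.04 in LT-HSC replicates 1 and 3. The 2 sets also differed in level. The mean log2 signals of the mitochondrial genes ran from 11.02 (mt-Nd2) to 12.16 (mt-Nd3), where the highest single value of all probe sets was 12.94. Those of the nuclear subunits ran from 5.55 to 10.82. The sets were thus not matched for level, and whether differences are comparable at such unlike levels was not tested. The difference between the 2 sets was not tested either.

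Of 35 assembly factors, which build the complexes, 0 were called, with medians of 0.24, 0.27 and -0.05 in the same order of comparisons. Their lowest p for ST-HSC minus LT-HSC was that of Ndufaf2, a complex I assembly factor, at 7.83, 7.91 and 8.22 in ST-HSC and 7.11 and 7.34 in LT-HSC (difference 0.77, limma adjusted p = 0.111). The 18 genes of mitochondrial biogenesis and DNA maintenance had 0.19, 0.21 and 0.00. Among them Ppargc1a, a coactivator of mitochondrial biogenesis, differed between ST-HSC and LT-HSC by -0.74 (limma adjusted p = 0.321), and Gabpb1, a subunit of GABP, by 0.75 for MPP minus LT-HSC (limma adjusted p = 0.312). No gene of this list was called.

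The 15 genes of the TCA cycle and pyruvate dehydrogenase, which supply NADH and succinate, had medians of 0.28, 0.38 and -0.09 in the same order of comparisons, with 0 called. For ST-HSC minus LT-HSC, Ogdh, of the oxoglutarate dehydrogenase complex, differed by 0.61 (limma adjusted p = 0.255), and for MPP minus LT-HSC, Pdha1, of pyruvate dehydrogenase, by 0.58 (limma adjusted p = 0.397). The 14 genes of mobile carriers and other entry routes had 0.22, 0.27 and -0.08, with 0 called. Among them Cycs, cytochrome c itself, was 10.25, 9.93 and 9.85 in ST-HSC and 9.19 and 9.50 in LT-HSC, without overlap, and differed by 0.67 (limma adjusted p = 0.194).

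Glycolysis genes (13) had medians of 0.17, 0.14 and 0.06, with 0 called. Their ST-HSC minus LT-HSC median, at 0.14, was below the 0.34 of the respiratory subunits. It was close to the 0.17 of 11 ubiquitously expressed control genes. A median of 11 genes is the value of 1 of them, and this one, 0.165297, is that of Sdha, itself a subunit. The control value in this comparison is thus not separate from the subunits. Among the ST-HSC arrays, glycolysis genes and subunits parted mainly in replicate 1, with median deviations of -0.20 and 0.12. In ST-HSC replicates 2 and 3 the glycolysis genes were at 0.08 and 0.18, against 0.08 and 0.21. In LT-HSC replicates 1 and 3 they were at -0.29 and 0.04, against -0.38 and -0.03. For MPP minus LT-HSC the control genes had 0.33, above the 0.21 of the subunits. Cell cycle genes moved far more: limma called 22 of 29 as risen in ST-HSC relative to LT-HSC, with a median of 1.62, while 0 were called for MPP minus LT-HSC (median 0.71). For MPP minus ST-HSC the median was -0.90 and 1 gene, Nusap1, which acts on the mitotic spindle, fell by 1.12 (limma adjusted p = 0.0485).

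**Figure D5:**
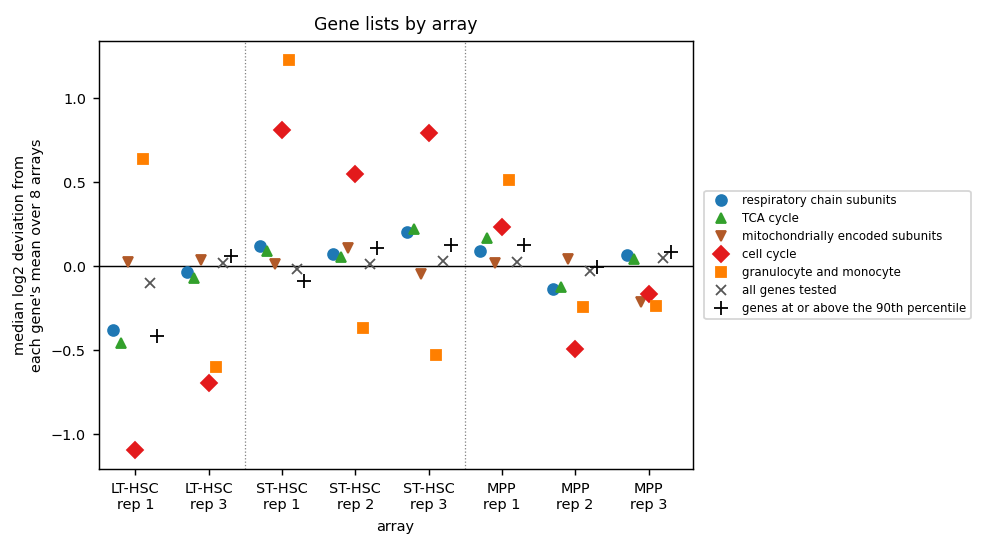
Median log2 deviation of 5 gene lists, of all genes tested and of genes at or above the 90th percentile in each array. The respiratory subunits follow the TCA cycle genes closely and are lowest in LT-HSC replicate 1, while the granulocyte and monocyte markers are highest in the 3 replicate 1 arrays.

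Markers of some other cells varied with the replicate number. The 16 granulocyte and monocyte markers had their 3 highest median deviations in the replicate 1 arrays: 0.64 (LT-HSC), 1.23 (ST-HSC) and 0.51 (MPP). All other arrays had values of -0.60 to -0.24. Erythroid markers (7 measured) stood at 0.18, 1.14 and 0.46 in those 3 arrays, and the rest ran over -0.86 to 0.02. Stroma and endothelium markers had 0.26, 0.44 and 0.11 in the same 3 arrays and -0.37 to -0.11 in the rest, and B cell markers 0.28, 0.21 and 0.11, with -0.28 to 0.00 in the rest. T and NK cell markers did not follow the replicate number, at -0.11, 0.25 and -0.01 in those arrays and -0.15 to 0.03 in the rest. These last 2 lists were short and dim. The median signal by array was 4.30 to 4.91 over 7 T and NK cell genes and 5.01 to 5.45 over 5 B cell genes, with the filter at 3.88. Values this low say little about cell content. The cell cycle genes, at -1.09 and -0.69 in LT-HSC replicates 1 and 3, 0.81, 0.55 and 0.79 in ST-HSC and 0.24, -0.49 and -0.16 in MPP, had the same order of populations as the subunits and were also low in MPP replicate 2. The part of either set of genes in the subunit differences was not tested, and in sorted bulk samples fewer cells of a type and less RNA per cell cannot be told apart.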

How the data were processed

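The values analysed were the authors' deposited table of log2 signals, 1 column per array and 33649 probe sets, made with RMA per the submitters' processing notes. That they are log2 was inferred from their range of 2.05 to 12.94. The platform's version, the build and the software settings are not given in the sources used here. RMA as a method corrects background and normalizes between arrays, so absolute differences in RNA content per cell are not retained. The deposited arrays still did not share 1 distribution. Their medians ran over 4.95 to 5.22 and their interquartile ranges over 2.49 to 3.06. Probe sets of different genes were not compared in level, apart from the level bands.

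Total RNA had been extracted with Trizol and amplified before biotin labelling, per the labels' protocols. Gene symbols came from the platform annotation: 23521 probe sets had 1 symbol, 1814 several and 8314 none. For each of 22180 genes the probe set with the highest mean was kept (1082 genes had several, among them 4 subunits). The 17576 genes whose mean reached the 25th percentile of probe sets (log2 3.88) were tested with limma 3.58.1 in R 4.3.3 (lmFit and eBayes, a mean per population, all 8 arrays, 5 residual and 5.93 prior degrees of freedom), with Benjamini-Hochberg adjustment over all of them and calls at an adjusted p under 0.05. Samples were grouped by their labels. With 8 arrays, precision is limited by their number. The fit was tested on simulated data first.

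The subunits and the other gene lists were chosen with earlier results of these data known, and Ndufa4 was counted in complex IV. Of 307 list entries 277 were matched, 11 through another symbol. Values in every array were given for the subunits with the largest differences of either sign in each complex and comparison (2 of each sign in complex I) and differences for up to 10 with non-overlapping groups; of the other lists, called genes and the gene of lowest p. Alternatives were other normalizations, filters and probe set rules, array weights, a replicate block, fits of 2 populations and fits without arrays. For the pairing check, deviations from the group means correlated at 0.149, 0.23 and 0.209 between ST-HSC and MPP arrays of equal number, so these were taken as paired, on the data alone. ST-HSC and MPP arrays of unequal number gave -0.283 to 0.0687. LT-HSC correlated with ST-HSC of equal number at 0.536 and 0.475, and with MPP at -0.159 and 0.0988. With 2 LT-HSC arrays the deviations mirror each other, so swapping the LT-HSC arrays gave -0.536 and -0.475 with the same ST-HSC arrays. Deviations within a group sum to 0, so these correlations are not independent of each other. The replicate block covered the LT-HSC arrays as well. Promoter sequences are from RefSeq, build GRCm38.p6. Figures and motif searches used Python 3.11.15.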

Additional observations from a re-analysis of the deposited data

How the results depend on the processing

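No subunit was called by limma in any comparison or in the F test under the alternatives run, except Uqcrfs1 without LT-HSC replicate 3 (1 subunit each for MPP minus LT-HSC and ST-HSC minus LT-HSC, and 0 in every other omission). With arrays so few, the test's misses say little about stability, and the LT-HSC medians lean on replicate 1. The MPP minus LT-HSC median of the subunits, 0.21, became 0.063 with quantile normalization, 0.042 with arrays scaled to a common interquartile range (chosen after seeing the data), 0.0039 without the replicate 1 arrays and 0.037 without both LT-HSC replicate 1 and ST-HSC replicate 1, and ran over 0.037 to 0.40 in single omissions. The ST-HSC minus LT-HSC median, 0.34, became 0.21 with quantile normalization, 0.19 with the common interquartile range (36 of 43 positive in place of 43), 0.16 without the replicate 1 arrays, 0.16 without both LT-HSC replicate 1 and ST-HSC replicate 1 and 0.17 without both LT-HSC replicate 1 and MPP replicate 2 (chosen after seeing the data), and ran over 0.17 to 0.51 in single omissions. The MPP minus ST-HSC median, -0.12, was between -0.16 and -0.04 in single omissions and kept its sign in every setting. Centring each array on its median raised the median of all genes to 0.18 and 0.13 in the LT-HSC comparisons, against 0.06 and 0.02, and that of the subunits to 0.33 and 0.45. No median changed sign under a scaling, while the share of positive MPP minus LT-HSC differences was 30 of 43 with quantile normalization and 25 of 43 with the common range.

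The count of all genes called moved more. For MPP minus LT-HSC (22) it was 37 with quantile normalization, 5 with median centring, 157 with the replicate block, 9 with array weights, 14 without the replicate 1 arrays, 5 without both LT-HSC replicate 1 and MPP replicate 2, and 6 to 615 in single omissions. For ST-HSC minus LT-HSC (164) it was 104 with median centring, 473 with the block, 61 with weights, 100 with only the 2 populations, 70 without the replicate 1 arrays, 23 without LT-HSC replicate 1 and MPP replicate 2, 17 to 825 in single omissions, and 0 without both LT-HSC replicate 1 and ST-HSC replicate 1, where 1348 genes had an unadjusted p under 0.05 by limma. For MPP minus ST-HSC (34) it was 1 with median centring, 267 with the block, 525 with weights, 71 with only the 2 populations, 104 without the replicate 1 arrays, 78 without both LT-HSC replicate 1 and ST-HSC replicate 1, and 1 to 71 in single omissions. The causes were not tested. With the replicate block the subunits called stayed at 0 in each comparison (lowest limma adjusted p = 0.244, 0.0684 and 0.487) and the medians were 0.28, 0.38 and -0.12, so the pairing changed no call among them.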
